A study of Mus musculus with 6 samples.

Results

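The chemokine family was taken as every gene whose symbol begins with Ccl, Cxcl, Cx3cl, Xcl, Ccr, Cxcr, Cx3cr or Ackr followed by a number and at most 1 letter. The files held 59 such genes among 55401, of which 38 encoded ligands and 21 encoded receptors. They were read in 6 primary cancer cell lines from C57BL/6 mice. In the Rag1KO group (replicates 1, 3 and 7) the lines came from mice of genotype Rag1KO, and in the WT group (replicates 2, 4 and 6) from mice of genotype WT. Mice without Rag1 make no mature T or B cells, so the comparison is between cancer cell lines from mice without and with adaptive immunity. All 6 lines came from digested primary tumours that were then cultured in serum-containing DMEM, with no treatment named. Tumour type, sex, age and the number of passages were not given, and no label ties each line to a separate animal. The tests below therefore measure the spread among these 6 lines, which may be technical in part.

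Chemokines are small secreted proteins that draw cells along a gradient. They are sorted into CC, CXC, CX3C and C classes by the spacing of their first cysteines, and they act on G protein-coupled receptors carried mostly by leukocytes. Secreted chemokines are held on heparan sulfate at cell surfaces, and the atypical receptors (Ackr) bind and remove ligands without G protein signalling. Tumour and stromal cells are known as sources of ligands, such as Ccl2 for monocytes, Cxcl1 and Cxcl5 for neutrophils and Cxcl9 and Cxcl10 for activated T cells.

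Libraries held 55409583 to 62998051 reads assigned to genes. Each value is a read count scaled by the size factor of its library, called a normalized count, and 3 reads, the limit that a count of 0 allows, correspond to 2.64 to 3.48 of them (counting error only). Rag1 had 39.3 to 177 normalized counts in lines labelled Rag1KO and 0 reads in lines labelled WT. Counts over the whole gene do not tell which part of it an allele lacks, so they do not check the labels, and "Rag1KO lines" and "WT lines" stand for lines so labelled throughout. WT replicate 6 stood apart from the other lines, with 206 normalized counts of the collagen gene Col1a1 where the others had at least 478322. Many results that rest on it, but not all, are given with and without it. WT replicates 2 and 4 expressed Xist and the other 4 lines expressed the Y-linked genes Ddx3y, Kdm5d and Uty, though Eif2s3y had 0 reads in WT replicate 6, so genotype label and sex-linked expression coincide in 5 of the 6 lines and cannot be told apart over those. Of the 12 leukocyte and macrophage markers, Ptprc was at most 3.83 normalized counts, and Tyrobp and Fcgr1 had 0 reads, while Csf1r had 4.4 to 429, Cd14 126 to 347, Cd68 75.6 to 142 and Cd74 0 to 241 over the 6 lines. The 10 lymphocyte markers and the 5 neutrophil markers each summed to at most 5.81 in any line. Fibroblast markers summed to 1107180 to 2037470 normalized counts in Rag1KO lines and 303318 to 1803220 in WT lines, the lowest being WT replicate 6. Endothelial markers summed to 241 to 1531 normalized counts in Rag1KO lines and 41.4 to 1049 in WT lines, led by Tek in 3 lines and by Kdr in 2. The 6 melanocyte markers summed to 90.1 to 373 normalized counts in Rag1KO lines and 37.8 to 104 in WT lines. Among them Sox10 had 333 reads in Rag1KO replicate 7 and at most 1 in any other line. Of the 7 epithelial markers Epcam had 0 reads in every line, while Krt19 had 6287, 1744 and 1789 normalized counts in the Rag1KO lines and 4799, 2600.2 and 0.88 in the WT lines, and the list summed to 1761 to 6337 normalized counts in Rag1KO lines and 10.6 to 4856 in WT lines.

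The lines transcribed a ligand repertoire with few receptors. Of the 38 ligand genes, 17 reached 100 normalized counts in at least 1 line, 4 had 0 reads in all 6 and 10 more never exceeded 3 reads. Of the 21 receptor genes, 3 reached 100 normalized counts (Cxcr4, Cxcr6 and the atypical receptor Ackr3), 6 had 0 reads in all 6 lines and 6 more never exceeded 3 reads. No CC receptor reached that level in any line, the highest being Ccr7 at 18.5 normalized counts in Rag1KO replicate 3, and none was kept for testing. Ccr2, the monocyte receptor for Ccl2, had 0 reads throughout, as did Cxcr1 and Cxcr2, the neutrophil receptors for Cxcl1 and Cxcl5. Counted per kilobase of exon and averaged over the 6 lines, Ccl7 led the family at 6149.9 normalized counts per kilobase, followed by Ccl2 at 4077 and Cxcl12 at 2468. Exons were merged over all annotated transcripts of a gene, to 801 bases for Ccl7, 1138 for Ccl2 and 8176 for Cxcl12. A merged length can exceed that of any single transcript, which lowers the value per kilobase, so the ranking depends on it. The order differed between lines: in WT replicate 6 Ccl2 was at 2392, Cx3cl1 at 1854 and Ccl7 at 158, and in Rag1KO replicate 3 Cxcl12 was at 643, below Ccl8 at 1297. Next in the 6-line average, Ccl8 and Cx3cl1 were at 733 and 729.5 per kilobase. In bulk RNA, fewer cells of a type and less RNA per cell cannot be told apart.

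**Figure D1:**
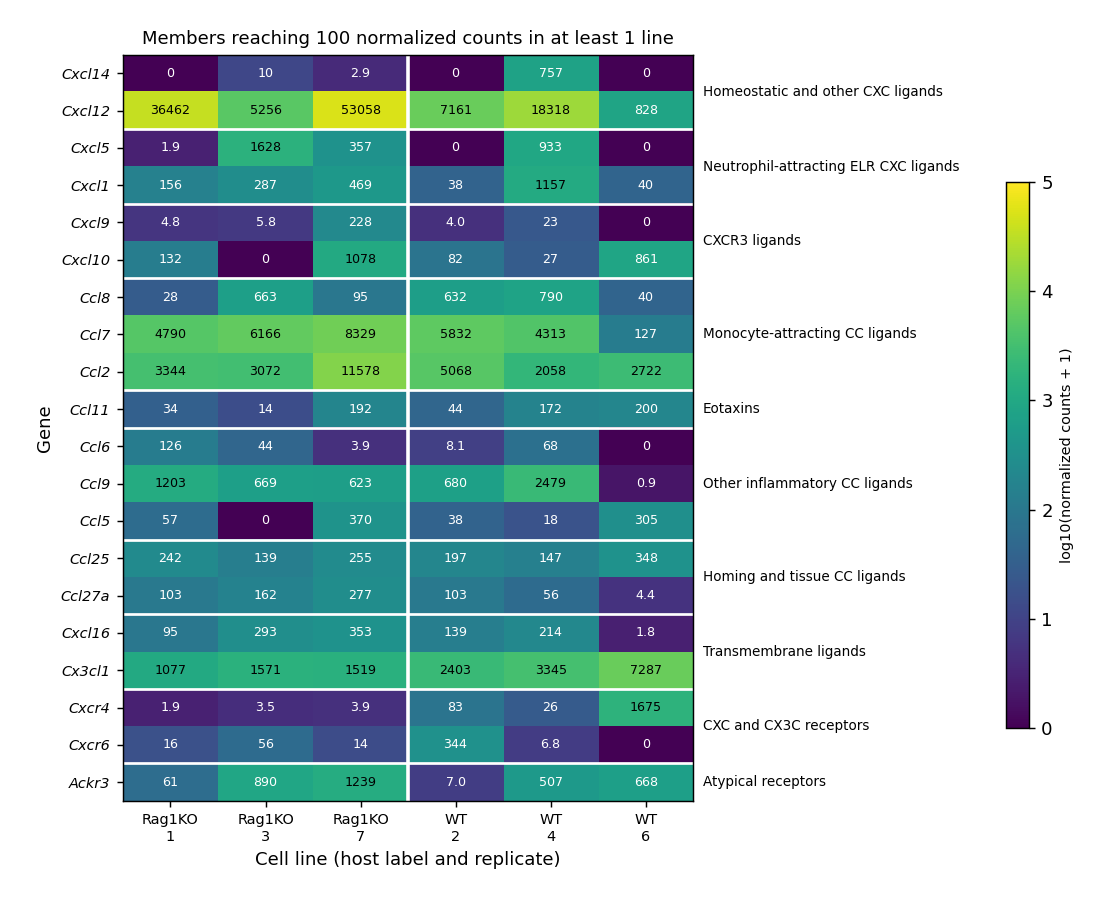
Normalized counts of the 20 family members that reached 100 in at least 1 line, by role (rows) and line (columns, Rag1KO replicates 1, 3 and 7 left of WT replicates 2, 4 and 6). Colour is log10(normalized counts + 1) and each cell prints the value. Cxcl12 runs between 828 and 53058. WT replicate 6 is the single lowest line for Cxcl12, Ccl7, Ccl9, Ccl6, Ccl27a, Cxcl16, Cxcl9 and Cxcr6.

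Levels of family members spread widely between lines. Among the 20 members that reached 100 normalized counts, 17 differed more than 10-fold between their highest and lowest line and 9 more than 100-fold, with libraries of 3 or fewer reads set to 3 reads. Rag1KO replicate 7 was the highest line for 9 of the 20 and the lowest for 0. These members were chosen by their highest line, which favours a wide range. The same counts were not made over all genes, so they do not set the family apart. In all, 19 members passed edgeR's filter for low counts and were tested, and 40 did not. Of the tested members, 8 passed the read cutoff in all 6 libraries. Cxcr4 passed through the WT lines alone, so its inclusion already required a difference. The median standard error of a log2 fold change was 1.52 for the tested members, against 0.40 over all 16137 genes tested.

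No member passed limma's test between Rag1KO and WT lines, and DESeq2 called Cxcr4. By limma with Benjamini-Hochberg adjustment over all genes, 0 of 19 members were called (0.0062% of all genes tested were), and 2 of 19 had an unadjusted p under 0.05 (4.67% of all genes). These were Cxcr4 and Cx3cl1. They were also the tested members whose groups did not overlap, both higher in WT lines. For Cxcr4, which passed the filter through WT lines alone, that direction was fixed by the filter, which leaves Cx3cl1 to set beside the 6.49% of all genes tested that were separated that way. None of the 19 was separated with Rag1KO higher, where 5.6% of all genes were (12.1% in either direction). Of the 19, 11 had a positive log2 fold change (Rag1KO minus WT) and 8 a negative one, with a median of 0.80 where that of all tested genes was -0.00. The median of these 19 was 0.27 without WT replicate 6. An absolute log2 fold change of at least 1 was reached by 15 of 19 members and by 16.9% of all genes tested, and without WT replicate 6 by 8 of 19 members and by 13.4% of all genes.

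By edgeR's quasi-likelihood test 0 members were called (0% of all genes), and 2 of 19 had an unadjusted p under 0.05 (4.44% of all genes). DESeq2 called 1 member, Cxcr4, where it called 0.403% of all genes, and 2 of 19 had an unadjusted p under 0.05 (6.54% of all genes). Cxcr4 entered these tests through the WT lines alone, so its call is not independent of the filter. Without WT replicate 6, limma called 0 of 21 members (0.0298% of all genes), again with 2 at an unadjusted p under 0.05 (4.12% of all genes). That line was the lowest of the 6 for 8 of 19 members, where it was for 30.2% of all genes tested, and the highest for 4 of 19, where it was for 27.4%.

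**Figure D2:**
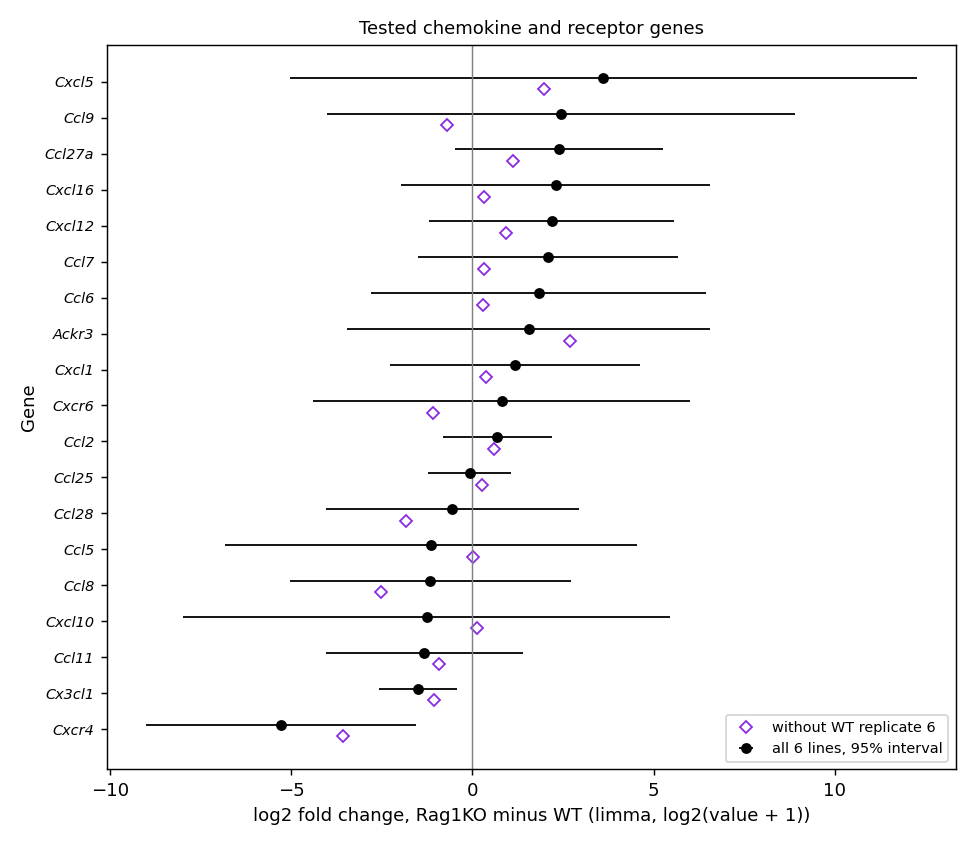
Log2 fold change (Rag1KO minus WT, limma on log2(value + 1)) of the 19 tested members. Filled points are fits to all 6 lines with 95% intervals, and open diamonds are fits without WT replicate 6. Intervals of Cxcr4 and Cx3cl1 lie below 0, at -9.02 to -1.56 and -2.58 to -0.43, and the diamonds of Ccl9, Cxcr6, Ccl25, Ccl5 and Cxcl10 lie across 0 from the filled point.

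Cxcl12, the homeostatic ligand that holds and guides cells through Cxcr4, had 36462, 5256 and 53058 normalized counts in the Rag1KO lines and 7161, 18318 and 828 in the WT lines (replicates in the order 1, 3 and 7, and 2, 4 and 6, here and below). Its gene lies on chromosome 6, 117168535 to 117181367 (mm10). The groups overlapped, since Rag1KO replicate 3 lay below WT replicates 2 and 4. Rag1KO lines averaged 31592 ± 24270.1 normalized counts and WT lines 8769 ± 8855 (SD, n = 3 each), and the log2 fold change was 2.18 with a standard error of 1.38 (limma, adjusted p = 0.850). Without WT replicate 6, the lowest line, it was 0.92.

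Cxcr4, the signalling receptor for Cxcl12 (chromosome 1, 128588199 to 128592293), was near 0 in all Rag1KO lines. It had 1.92, 3.48 and 3.88 normalized counts in the Rag1KO lines and 82.6, 26.1 and 1675 in the WT lines, the Rag1KO values coming from 2, 3 and 4 reads and the WT values from 82, 27 and 1904. Every WT line lay above every Rag1KO line, and the WT lines themselves differed 64.3-fold. The pooled reads gave a level in Rag1KO lines that was 0.00482 times that in WT lines (95% exact interval 0.0022 to 0.00916, counting error only), or 0.057 times (0.0254 to 0.112) without WT replicate 6. The log2 fold change on the log2(value + 1) scale was -5.29 with a standard error of 1.52 (limma, adjusted p = 0.850; edgeR, adjusted p = 0.891), and -3.57 with a standard error of 0.78 without WT replicate 6 (limma, adjusted p = 0.982). DESeq2 gave it an adjusted p of 0.000129, and 0.0215 without WT replicate 6, an alternative chosen after the data were seen. Since Cxcr4 passed the filter through the WT lines alone, its direction and separation were fixed by that filter. The tests and the pooled ratio are therefore not independent of it.

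Ackr3, the atypical receptor that scavenges Cxcl12, had 61.3, 889.9 and 1239 normalized counts in the Rag1KO lines and 7.05, 507 and 668 in the WT lines. Rag1KO replicate 1 and WT replicate 2 were the low lines, so each group held both high and low lines. Its log2 fold change was 1.55 with a standard error of 2.04 (limma, adjusted p = 0.881), and -0.51 without WT replicate 2. Without WT replicate 6 it was 2.68. WT replicate 6 had the highest Cxcr4 level and the lowest Cxcl12 level of the 6 lines. Among Rag1KO lines Cxcr4 had at most 4 reads both where Cxcl12 was highest (replicates 1 and 7) and where it was low (replicate 3).

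**Figure D3:**
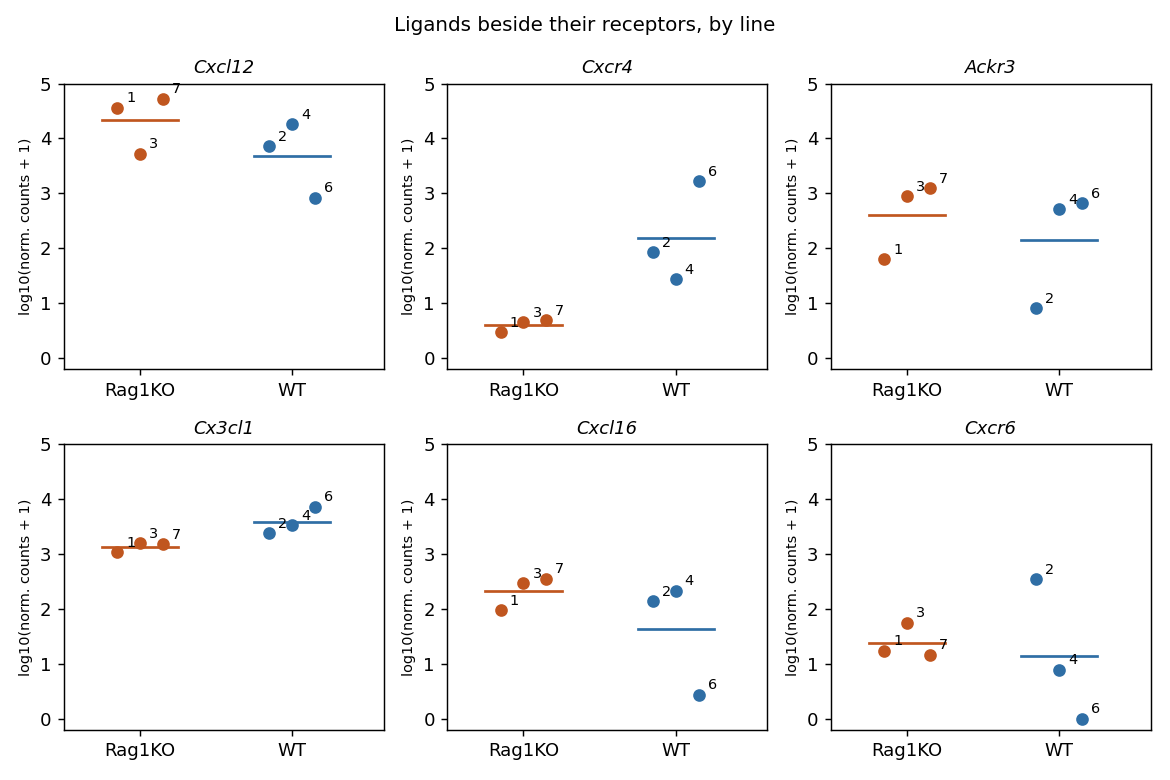
Log10(normalized counts + 1) by line for 3 ligands and 3 receptors, Rag1KO lines left and WT lines right. Points are lines, labelled by replicate, and bars are means of the plotted values (n = 3). Cxcr4 and Cx3cl1 are separated between the groups, while Cxcl12, Ackr3, Cxcl16 and Cxcr6 overlap.

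The transmembrane ligands, which anchor cells as membrane proteins and act as attractants once shed, differed in layout. Cx3cl1 (fractalkine, chromosome 8, 94772009 to 94782427) had 1077, 1571 and 1519 normalized counts in the Rag1KO lines and 2403, 3345 and 7287 in the WT lines. Rag1KO lines spanned 1.46-fold and all lay below the WT lines, whose highest value was again replicate 6. Rag1KO lines averaged 1389 ± 271 normalized counts and WT lines 4345 ± 2591 (SD, n = 3 each), which was 2.83-fold higher in WT on the log2 scale (log2 fold change -1.50, standard error 0.44; limma, adjusted p = 0.850). Without WT replicate 6 it was 2.07-fold higher in WT (log2 fold change -1.05, standard error 0.28; limma, adjusted p = 0.982), and the groups remained apart. DESeq2 gave an adjusted p of 0.182. Its receptor Cx3cr1 had at most 3.48 normalized counts in any line.

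Cxcl16 had 94.9, 293 and 353 normalized counts in the Rag1KO lines and 139, 214 and 1.76 in the WT lines, the last from 2 reads. Groups overlapped, and the log2 fold change of 2.30 (standard error 1.74; limma, adjusted p = 0.850) was 0.31 without WT replicate 6. Its receptor Cxcr6 had 16.3, 55.6 and 13.6 normalized counts in the Rag1KO lines and 344, 6.76 and 0 in the WT lines, so WT replicate 2 was the high line and WT replicate 6 had no reads. The log2 fold change of Cxcr6 was 0.80 (standard error 2.13) and -1.09 without WT replicate 6. In the annotation 18.3% of the exonic bases of Cxcl16 overlap Zmynd15 on the opposite strand, as 5.91% of those of Cxcl10 overlap Art3 and 2.74% of those of Ccl25 overlap Elavl1. The libraries were stranded, but whether counting used strand was not given in the sources used here.

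The monocyte-attracting ligands included 2 of the most abundant members. Ccl2 had 3344, 3072 and 11578 normalized counts in the Rag1KO lines and 5068, 2058 and 2722 in the WT lines. The groups overlapped, Rag1KO replicate 7 was the high line, and the log2 fold change was 0.69 (standard error 0.61; limma, adjusted p = 0.850), or 0.07 without that line. Ccl7, whose gene starts 8258 bases beyond the end of Ccl2 on chromosome 11, had 4789.6, 6166 and 8329 normalized counts in the Rag1KO lines and 5832, 4313 and 127 in the WT lines. Apart from WT replicate 6, which lay far below, the lines formed a narrow band. The log2 fold change of Ccl7 was 2.09 (standard error 1.47; limma, adjusted p = 0.850), and 0.32 without that line. Ccl2 was at 0.698, 0.498 and 1.39 times the normalized counts of Ccl7 in the Rag1KO lines and at 0.869, 0.477 and 21.5 times in the WT lines. Ccl8 had 27.8, 663 and 94.9 normalized counts in the Rag1KO lines and 632, 789.8 and 40.5 in the WT lines, with high and low lines in both groups, and a log2 fold change of -1.17 (standard error 1.58). With 1 line left out it ran from -2.53, without WT replicate 6, to -0.12, without Rag1KO replicate 1. Ccl12, the remaining ligand of this set, had 0 reads.

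Ccl11 (eotaxin, which attracts eosinophils) is encoded between Ccl7 and Ccl12 and had 33.5, 13.9 and 192 normalized counts in the Rag1KO lines and 44.3, 172 and 199.7 in the WT lines. The groups overlapped (log2 fold change -1.33, standard error 1.11). The other eotaxins, Ccl24 and Ccl26, had at most 1.93 normalized counts.

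**Figure D4:**
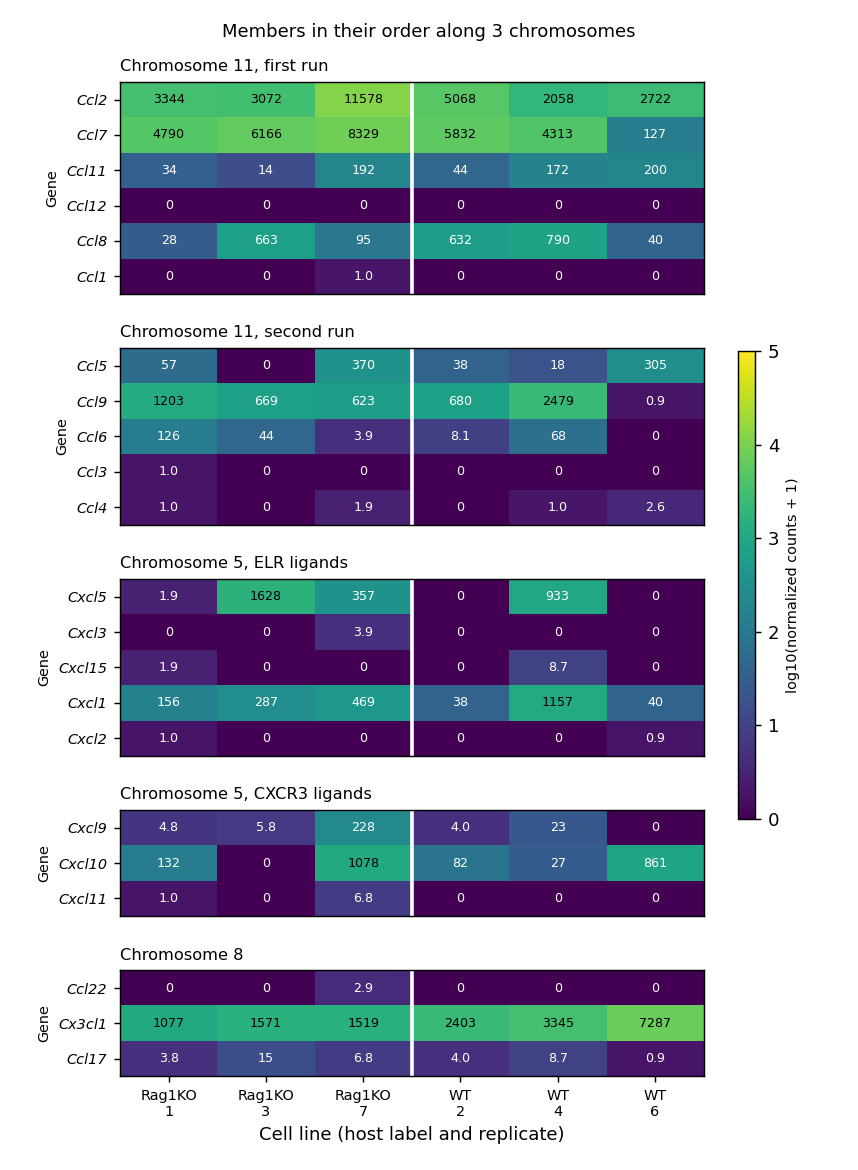
Normalized counts of neighbouring members in their order along chromosomes 11, 5 and 8, by line (Rag1KO replicates 1, 3 and 7 left, WT replicates 2, 4 and 6 right). Colour is log10(normalized counts + 1) and each cell prints the value. Neighbours differ within a line: in WT replicate 6 Ccl2 is at 2722 beside Ccl7 at 127, and Cx3cl1 at 7287 lies between Ccl22 at 0 and Ccl17 at 0.88.

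The other inflammatory CC ligands fell into different layouts. Ccl9, a ligand of Ccr1 in the mouse, had 1203, 669 and 623 normalized counts in the Rag1KO lines and 679.8, 2479 and 0.88 in the WT lines, the last from 1 read. All lines apart from WT replicate 6 held the transcript at high levels, and the log2 fold change was 2.44 (standard error 2.63; limma, adjusted p = 0.861) with WT replicate 6 and -0.71 without it. Its neighbour Ccl6 had 126, 44.0 and 3.88 normalized counts in the Rag1KO lines and 8.06, 67.6 and 0 in the WT lines. Rag1KO replicate 1 was highest for Ccl6, and the log2 fold change of 1.83 (standard error 1.88) was 0.28 without WT replicate 6. Of the leukocyte and macrophage markers, 4 never exceeded 3 reads in any line, 2 of them at 0. The macrophage gene Lyz2, chosen after its values were seen, held the highest single value of the list. It had 1493, 579 and 71.7 normalized counts in the Rag1KO lines and 113, 349 and 0 in the WT lines. Rag1KO replicate 1 was highest for Lyz2 and WT replicate 6 lowest, as for Ccl6. Csf1r lay above Lyz2 in Rag1KO replicate 7 (164), and Cd14 lay above it in WT replicates 2 and 6 (347 and 126). Other markers of the list were highest elsewhere, Csf1r in Rag1KO replicate 3, Cd14 in WT replicate 2, Cd74 in WT replicate 4 and Laptm5 in WT replicate 6 (91.5 normalized counts). Adgre1, a macrophage identity marker, had at most 1.16 normalized counts, and the list summed to 618 to 2125 in Rag1KO lines and 360 to 1154 in WT lines. The part of such cells in the Ccl6 and Ccl9 levels was not tested. Ccl3 and Ccl4, macrophage inflammatory proteins encoded beside them, had at most 2.64 normalized counts.

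Ccl5 and the CXCR3 ligands are known targets of interferon and NF-kB signalling, and Cxcl9 depends most on interferon gamma. Cxcl10 had 132, 0 and 1078 normalized counts in the Rag1KO lines and 81.6, 27.0 and 861 in the WT lines. Ccl5, which lies on a different chromosome, had 57.5, 0 and 370.1 normalized counts in the Rag1KO lines and 38.3, 18.3 and 305 in the WT lines. Both genes ranked the 6 lines identically, with Rag1KO replicate 7 and WT replicate 6 on top and 0 reads in Rag1KO replicate 3. Where both were read, Cxcl10 was at 1.47 to 2.91 times the normalized counts of Ccl5. Log2 fold changes were -1.27 for Cxcl10 (standard error 2.74; limma, adjusted p = 0.928) and -1.14 for Ccl5 (standard error 2.32; limma, adjusted p = 0.921). Their direction turned without Rag1KO replicate 3 (1.59 and 1.26) and without WT replicate 6 (0.12 and 0.02), and it was also positive by edgeR (0.33 and 0.25).

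Cxcl9, next to Cxcl10 on chromosome 5, had 4.79, 5.79 and 228 normalized counts in the Rag1KO lines and 4.03, 23.2 and 0 in the WT lines and was not kept for testing. It was high in Rag1KO replicate 7, like Cxcl10, but had 0 reads in WT replicate 6, where Cxcl10 had 979. Cxcl11 had at most 6.78 normalized counts, and their receptor Cxcr3 at most 2.64. The interferon-regulated transcription factor gene Irf7 had 991, 162 and 2991 normalized counts in the Rag1KO lines and 1044, 612 and 11758 in the WT lines. It was highest in WT replicate 6, next highest in Rag1KO replicate 7 and lowest in Rag1KO replicate 3. Irf1, another interferon-regulated factor and chosen after its values were seen, had 1107, 2612 and 2583 normalized counts in the Rag1KO lines and 1996, 2476 and 2049 in the WT lines, with Rag1KO replicate 3 highest, so its order differed from that of Irf7.

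**Figure D5:**
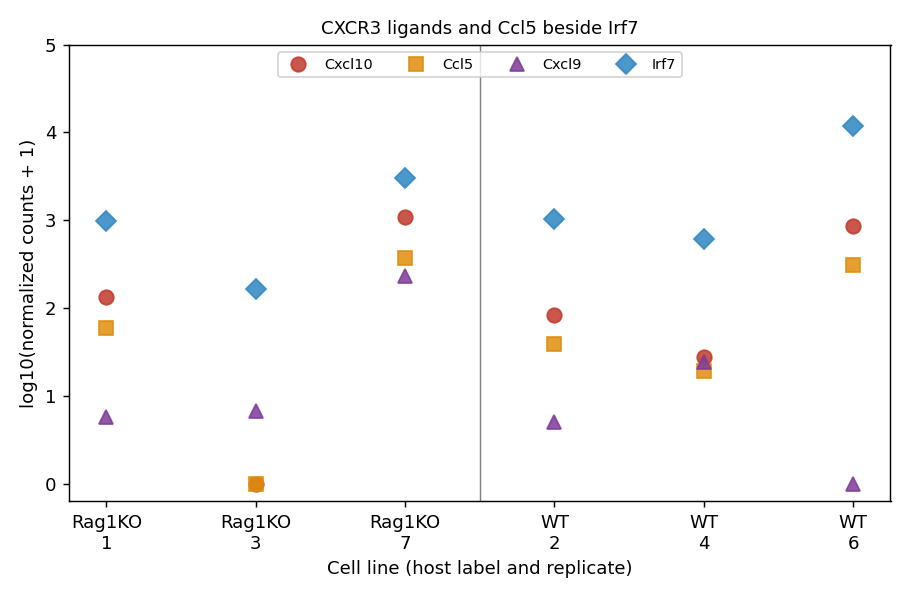
Log10(normalized counts + 1) of Cxcl10, Ccl5, Cxcl9 and Irf7 in each line, Rag1KO replicates left of the grey line and WT replicates right of it. Cxcl10 and Ccl5 are at 0 in Rag1KO replicate 3 and highest in Rag1KO replicate 7 and WT replicate 6. Cxcl9 is at 0 in WT replicate 6.

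The promoters of Cxcl10 and Cxcl1 are printed because each held more than 1 match to a searched motif and their levels differed widely between lines. They show the bases before the annotated start, 5′ to 3′ on the gene's strand, from RefSeq on GRCm38.p6 (Cxcl10 at chr5:92348890-92349139, minus strand, Cxcl1 at chr5:90890995-90891240, plus strand). Capitals mark matches, on either strand, to the NF-kB motif (GGG, any 3 bases, TTCC) or to the interferon-stimulated response element, ISRE (TTTC, any 2 bases, TTTC).
Cxcl10: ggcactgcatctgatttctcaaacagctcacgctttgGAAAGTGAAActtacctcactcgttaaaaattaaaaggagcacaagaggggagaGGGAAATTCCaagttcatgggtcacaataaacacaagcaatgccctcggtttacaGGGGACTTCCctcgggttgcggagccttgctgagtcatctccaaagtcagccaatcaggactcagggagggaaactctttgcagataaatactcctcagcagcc
Cxcl1: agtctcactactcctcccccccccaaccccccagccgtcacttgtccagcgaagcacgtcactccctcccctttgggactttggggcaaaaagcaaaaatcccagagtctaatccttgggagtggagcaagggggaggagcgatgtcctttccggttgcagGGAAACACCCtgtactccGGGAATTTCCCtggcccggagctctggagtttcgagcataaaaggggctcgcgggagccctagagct
Positions count back from the RefSeq start, and the last 4 bases before that of Cxcl1, exonic in the annotation, are not printed. In the Cxcl10 window the ISRE letters began 213 bases before the start, on the opposite strand, and the NF-kB letters 159 and 104 bases before it. In the Cxcl1 window NF-kB letters began 89, 71 and 70 bases before the start, the last 2 overlapping on opposite strands. RefSeq promoters were found for 14 of the 20 members that reached 100 normalized counts, in 17 windows. Ccl2, Ccl5, Ccl7, Ccl11, Cxcl5 and Cxcl16 had no entry and were not searched. NF-kB letters were in those of 3 members (Ccl9, Cxcl1 and Cxcl10), against 4.65% of all 32851 windows of 250 bases. ISRE letters were in those of 2 (Cxcl10 and Cxcl14), against 2.98% of all windows, and the interferon gamma-activated motif TTCNNNGAA in that of 1 (Cxcl14), against 7.02%. The shares over all windows are per window, while a member with more than 1 window was counted once. A match describes letters, not a bound site.

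The neutrophil-attracting ligands carry a glutamate-leucine-arginine motif and signal through Cxcr2. Cxcl1 had 156, 287 and 469 normalized counts in the Rag1KO lines and 38.3, 1157 and 39.6 in the WT lines. WT replicate 4 was the highest line and WT replicate 2 the lowest, so the WT lines enclosed all Rag1KO lines. By limma the log2 fold change was 1.18 (standard error 1.41, adjusted p = 0.869), and 0.38 without WT replicate 6. It was -0.43 by edgeR with all 6 lines. Cxcl5 had 1.92, 1628 and 357 normalized counts in the Rag1KO lines and 0, 933 and 0 in the WT lines, so that 3 lines were high and the other 3 held at most 2 reads. Both groups held lines of each kind, and the log2 fold change was 3.61 (standard error 3.53; limma, adjusted p = 0.853), running from 1.72 without Rag1KO replicate 3 to 6.90 without WT replicate 4 (1.97 without WT replicate 6). Cxcl2, Cxcl3 and Cxcl15, encoded between and beside them, had at most 8.69 normalized counts. Ppbp, a platelet chemokine gene of the same class under another symbol, had 16.3, 56.8 and 11.6 normalized counts in the Rag1KO lines and 26.2, 50.2 and 0 in the WT lines.

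The homing and tissue ligands were low in most cases. Ccl25, a thymic and intestinal ligand, had 242, 139 and 255 normalized counts in the Rag1KO lines and 197, 147 and 348 in the WT lines, the narrowest range of the 20 members (2.5-fold), and its log2 fold change was -0.08 (standard error 0.47; 95% interval -1.22 to 1.07). It was 0.27 without WT replicate 6 and 0.20 without Rag1KO replicate 3. Ccl27a, a skin-homing ligand, had 103, 162 and 277 normalized counts in the Rag1KO lines and 103, 56.0 and 4.4 in the WT lines. Rag1KO replicate 1 and WT replicate 2 nearly coincided, and WT replicate 6 was far below the others. Its log2 fold change was 2.40 (standard error 1.17; limma, adjusted p = 0.850), and 1.12 without WT replicate 6. The near-identical copy Ccl27b had at most 4.84 normalized counts. How the authors' counting treated reads that match both was not given, so either value may miss such reads. Ccl28, a mucosal ligand, had 4.79, 24.3 and 1.94 normalized counts in the Rag1KO lines and 14.1, 47.3 and 0.88 in the WT lines (log2 fold change -0.56, standard error 1.42), or 0.12 without Rag1KO replicate 7 and 0.50 without WT replicate 4. Ccl17, Ccl19, Ccl20, Ccl21a, Ccl21b and Ccl22 had at most 15.1 normalized counts.

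Cxcl14, a ligand of epithelia and fibroblasts, was a gene of 1 line. It had 0, 10.4 and 2.91 normalized counts in the Rag1KO lines and 0, 757 and 0 in the WT lines, with 784 reads in WT replicate 4 and at most 9 in any other line, and was not kept for testing. The fibroblast genes Lum and Dcn, chosen after their values were seen, were highest in that line too, Lum at 24.9, 0 and 50.4 normalized counts in the Rag1KO lines and 51.4, 2478 and 78.3 in the WT lines and Dcn at 634, 197 and 1705 normalized counts in the Rag1KO lines and 2828, 11372 and 412 in the WT lines. Col3a1 and Pdgfra were highest in that line as well, while Col1a1, Pdgfrb and Thy1 were highest in Rag1KO replicate 3 and Col1a2 in Rag1KO replicate 7. The epithelial markers Krt18, Cdh1 and Krt8 were also highest in WT replicate 4, at 126, 158 and 58.9 normalized counts. Krt19 and Krt5 were highest in Rag1KO replicate 1, and Krt14 had at most 3.86 normalized counts. The part of either cell type in the Cxcl14 level was not tested.

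The genes around the family were read from lists fixed by name with earlier results of these data known. No list had a member called by limma in either direction. Of 20 tested genes for NF-kB and inflammation, 13 had positive log2 fold changes, with a median of 0.21. Csf1, a growth factor for macrophages, had 65897, 69248 and 39760.2 normalized counts in the Rag1KO lines and 41203, 31384 and 15455 in the WT lines (log2 fold change 1.06, standard error 0.44; limma, adjusted p = 0.850). The inhibitor gene Nfkbia was separated, at 1391, 1087 and 1574 normalized counts in the Rag1KO lines and 899, 1019.6 and 1069 in the WT lines. Birc3 and the interleukin 1 receptor gene Il1r1 had log2 fold changes of 0.99 and 1.07 with overlapping groups. Without WT replicate 6 the log2 fold changes of Csf1, Birc3 and Il1r1 were 0.65, 0.65 and 0.59. Among interferon pathway genes, the interferon gamma receptor gene Ifngr2 was separated (log2 fold change 0.49). Ifngr1, Ifnar2 and Irf7 overlapped, with log2 fold changes of 0.49, 0.30 and -1.32. Those of Irf7 and Ifngr1 were -0.03 and 0.19 without WT replicate 6.

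Of 14 tested genes for signalling below the receptors, 11 had positive log2 fold changes, with a median of 0.11. The beta-arrestin gene Arrb1, whose product turns off and internalises chemokine receptors, was separated at 1283, 1275 and 3464 normalized counts in the Rag1KO lines and 979.9, 947 and 291 in the WT lines. Gnai2, the main inhibitory G protein subunit of leukocyte receptors, was separated as well (log2 fold change 0.27), while Plcb3 and Elmo1 overlapped (0.46 and -1.08).

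Of 19 tested genes for shedding and presentation, 12 had negative log2 fold changes, with a median of -0.17, and 3 were separated with WT higher, where 6.49% of all genes tested were. Adam17, a protease that sheds Cx3cl1 and Cxcl16, had 4119.8, 3349.7 and 2747 normalized counts in the Rag1KO lines and 4422, 4781 and 6929.6 in the WT lines (log2 fold change -0.65, standard error 0.25; limma, adjusted p = 0.850). The heparan sulfate synthesis genes Ndst1 and Hs2st1 had log2 fold changes of -0.60 and -0.36, and Sdc2, a heparan sulfate proteoglycan gene, -0.77 with overlapping groups. Without WT replicate 6 these 4 values were -0.45, -0.38, -0.39 and -0.67. Family genes under other symbols were low apart from Ppbp. Pf4 reached 11.6 normalized counts, in WT replicate 4, and the decoy receptor gene Ccrl2 reached 19.4, in WT replicate 6. Xcr1 and Gpr182 never exceeded 2 reads, and Ccr1l1 had 0.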

How the data were processed

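RNA sequencing libraries of 6 cell lines were read from the deposited tables, 1 per line. The authors' values have the unit of signal: per the labels and the values themselves, reads per gene scaled by a size factor for each library. All values were whole within 0.01 reads after multiplication, and the recovered libraries held 55409583 to 62998051 reads. The submitters' processing notes list STAR 2.7.9a, Trim Galore 0.6.6, DESeq2, FastQC and the build mm10 without roles, and the counter and annotation were not given in the sources used here. Per the labels' protocols, libraries were made with the TruSeq Stranded kit. Rows without a gene symbol took at most 0.19% of reads.

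Log2(value + 1) entered limma 3.58.1, with a trended prior variance, for the 16137 genes kept by filterByExpr on the recovered reads (10 reads at the median library in 3 libraries). The contrast was Rag1KO minus WT, two-sided, with Benjamini-Hochberg adjustment over all genes and a threshold of 0.05. Alternatives used edgeR 4.0.16, DESeq2 1.42.0, TMM scaling, a pseudocount of 0.1, other filters and leaving out each line. Scripts were checked on simulated data. Coordinates and exonic lengths, with exons merged over all transcripts of a gene, are from GENCODE M21, which held all 59 members. Members and lists were chosen with earlier results of these data known. Members reaching 100 normalized counts in 1 line are given in full, the others by range. From each pathway list up to 4 genes of lowest p are named, and genes named outside this rule are marked so in the text, marker genes being named after their values were known. R 4.3.3 and Python 3.11.15 were used. Results that need withheld items are not reported here.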

Additional observations from a re-analysis of the deposited data

How the results depend on the processing

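No member passed limma's threshold with any single line left out, under TMM scaling, a pseudocount of 0.1, no filter or a filter of 1 CPM in 3 libraries, nor by edgeR. DESeq2 called 1 member with all 6 lines and 1 without WT replicate 6, Cxcr4 both times, with log2 fold changes of -7.58 and -4.13. Its direction was fixed by the filter, which it passed through WT lines alone. Over all genes, limma called 1, and 0 to 5 with a line left out, edgeR called 0 with all lines and 0 without WT replicate 6, and DESeq2 called 65 and 145. Separated members numbered 2, and 2 to 6 with a line left out: 6 without Rag1KO replicate 1, 6 without WT replicate 2 and 4 without WT replicate 4. Fewer lines make separation easier by construction.

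Of the 19 tested members, 8 changed direction under some alternative and 11 under none. edgeR and DESeq2 turned Ccl9 (-0.33 by each), Cxcl1 (-0.43 by each), Cxcl10 (0.33 by each), Ccl5 (0.25 by each) and Cxcr6 (-2.02 and -2.03). Without WT replicate 6, edgeR and DESeq2 gave -0.92 and -0.92 for Ccl9, 0.31 and 0.31 for Ccl25, -0.97 and -0.97 for Cxcl1, 2.90 and 2.90 for Cxcl10, 2.33 and 2.34 for Ccl5, and -2.62 and -2.62 for Cxcr6, alternatives chosen after seeing the data. With 1 line left out, limma's values ran from -0.51 to 2.91 for Ackr3, -0.35 to 0.27 for Ccl25, -1.84 to 0.50 for Ccl28, -3.01 to 1.26 for Ccl5, -0.71 to 4.47 for Ccl9, -3.45 to 1.59 for Cxcl10 and -1.09 to 3.12 for Cxcr6. The cause was not tested. No paired analysis was possible because the groups share no replicate numbers.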

Other observations

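Summed over the 38 ligand genes, normalized counts were 47873, 20025 and 78824 in Rag1KO replicates 1, 3 and 7 and 22449.5 in WT replicate 2, 34943 in WT replicate 4 and 12770 in WT replicate 6. Cxcl12 made up 76.2%, 26.2% and 67.3% of that sum in the Rag1KO lines and 31.9%, 52.4% and 6.48% in the WT lines. These shares are of reads and favour long transcripts, and the merged exons of all annotated Cxcl12 transcripts cover 8176 bases.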
